A study of Mus musculus with 6 samples.

Results

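The interleukin-1 (IL-1) family genes described here are 7 genes taken by symbol from the 23337 gene symbols in each count table: the cytokine genes Il33, Il18, Il1a and Il1b, the antagonist gene Il1rn, and the receptor genes Il1r1 and Il1rap. All 7 were present in the tables. The samples were mouse alveolar type II (AT2) cells, the lung epithelial cells that make surfactant, sorted as Tomato-positive cells 10 days after acute lung injury by the bacterium Pseudomonas aeruginosa. The mutant group was SpC-CreER/Dlk1flox/ROSA-Tomato, and the wild-type group was SpC-CreER/ROSA-Tomato. Both groups thus carried the inducible Cre driven by the surfactant protein C promoter and the Tomato reporter, and only the mutant carried the floxed Dlk1, which encodes a transmembrane relative of the Notch ligands. Each group had 3 libraries of polyadenylated RNA, with 22511461 to 30695994 counts per library. The labels do not tie each library to a separate animal, and the p-values reflect only variation among these libraries, which may be technical. One protocol entry also mentions a culture step, and the labels leave unclear whether the sequenced cells went through it.

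IL-1 family cytokines are released by stressed, infected or dying cells and start inflammation through receptors with an intracellular TIR domain. IL-1α and IL-1β bind IL-1R1 (Il1r1), IL-33 binds ST2 (Il1rl1), and both complexes need the accessory protein IL-1RAcP (Il1rap) to signal through MyD88, the IRAK kinases and NF-κB. IL-18 uses its own pair of chains, Il18r1 and Il18rap, and the antagonist encoded by Il1rn occupies IL-1R1 without signalling. In the lung, IL-33 is stored in the nuclei of epithelial cells as an alarmin, while IL-1β is made mainly by myeloid cells and is cut to its active form by caspase-1.

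Promoter sequences are shown for the most abundant cytokine gene, Il33, and for Il1a and Il1b, which were both low in 5 libraries and highest in mutant 1. The RefSeq table on GRCm38.p6 matched all 7 members and listed 2 starts for Il33, and gene-level counts do not tell which start was used. Each sequence gives the 100 bases before a start, 5′ to 3′ on the gene's strand, and capitals mark the TATAAA motif.
Il33, upstream start (chr19:29925013-29925112, + strand): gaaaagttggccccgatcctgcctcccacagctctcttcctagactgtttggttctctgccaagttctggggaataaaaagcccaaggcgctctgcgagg
Il33, downstream start (chr19:29945690-29945789, + strand): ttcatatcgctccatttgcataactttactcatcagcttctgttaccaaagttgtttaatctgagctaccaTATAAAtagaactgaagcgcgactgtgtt
Il1a (chr2:129309973-129310072, - strand): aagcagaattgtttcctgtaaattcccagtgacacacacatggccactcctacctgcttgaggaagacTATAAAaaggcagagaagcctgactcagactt
Il1b (chr2:129371140-129371239, - strand): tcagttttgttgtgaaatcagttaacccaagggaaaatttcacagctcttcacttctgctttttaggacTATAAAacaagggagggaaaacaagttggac
TATAAA began 32 bases before the start in Il1a, 31 bases before it in Il1b and 29 bases before the downstream start of Il33. Both strands were searched, and no window of Il18, Il1rn, Il1r1 or Il1rap held the motif, whereas 5.56% of all 32851 promoter windows of this length did. The NF-κB consensus, searched by the same procedure and present in 2.995% of all windows, was not among the letters of any member's window. These matches describe the sequence only.

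Dlk1 itself had at most 2 counts in any library, under the limit of 3 counts that a zero count allows, so the targeted gene did not check the labels. AT2 markers were abundant throughout, with 10 marker genes summing to 129170 counts-per-million (CPM) in mutant 1 and to 136960 to 160020 CPM in the other 5 libraries. Mutant 1 stood apart. The sum of 6 genes of all blood cells was 476 CPM there and 6.51 to 26.9 CPM elsewhere, with all 6 genes highest in mutant 1. That of 9 neutrophil genes was 68.4 CPM against 0.79 to 2.08 CPM, with 8 of 9 highest in mutant 1 and Camp at 0 in the other 5. The sum of 12 macrophage and monocyte genes was 499 CPM against 29.9 to 88.2 CPM, with 11 of 12 highest in mutant 1. Those of 8 lymphocyte, 8 fibroblast, 8 endothelial and 8 club and goblet cell genes were 45.5-fold, 49.97-fold, 11.4-fold and 14.5-fold above the mean of the other 5 libraries, with all 8 of each list highest there. Wild type 2 had Xist at 184.6 CPM where no other library exceeded 2.93 CPM. It had the Y-linked gene Ddx3y at 2.88 CPM, against 49.8 to 78.2 CPM elsewhere, so sex-linked genes differed within the wild-type group. Fold changes of the 5 tested members are therefore given with and without mutant 1, and the part of these other cells in any result was not tested. Fewer cells of a type and less RNA per cell cannot be told apart in these bulk samples.

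The members covered a wide range of levels. Divided by transcript length and averaged over the 3 wild-type libraries, Il33 came first at 311 TMM-normalised CPM per kilobase (SD 47.3). It was followed by Il1r1 at 14.2 (SD 0.62), Il1rap at 2.90 (SD 1.03), Il18 at 1.14 (SD 1.02), Il1b at 0.25 (SD 0.04), Il1rn at 0.22 (SD 0.14) and Il1a at 0.10 (SD 0.08), on the same scale. Over the wild types the range of Il1rap overlapped that of Il18, and the range of Il1rn overlapped those of Il1b and Il1a, so the order of these neighbours is not beyond their spread. Il1b (0.20 to 0.27) and Il1a (0 to 0.16) did not overlap on this scale, at no more than 9 counts per library each. Of 12354 tested genes with a transcript length, 1.21% stood above Il33 in the wild-type mean, 37.4% above Il1r1 and 73.3% above Il1rap. Lengths were medians of protein-coding transcripts on GRCm38, while the counts were made on mm9, and Il1rn would stand at 0.12 with its longest and 0.94 with its shortest transcript.

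**Figure D1:**
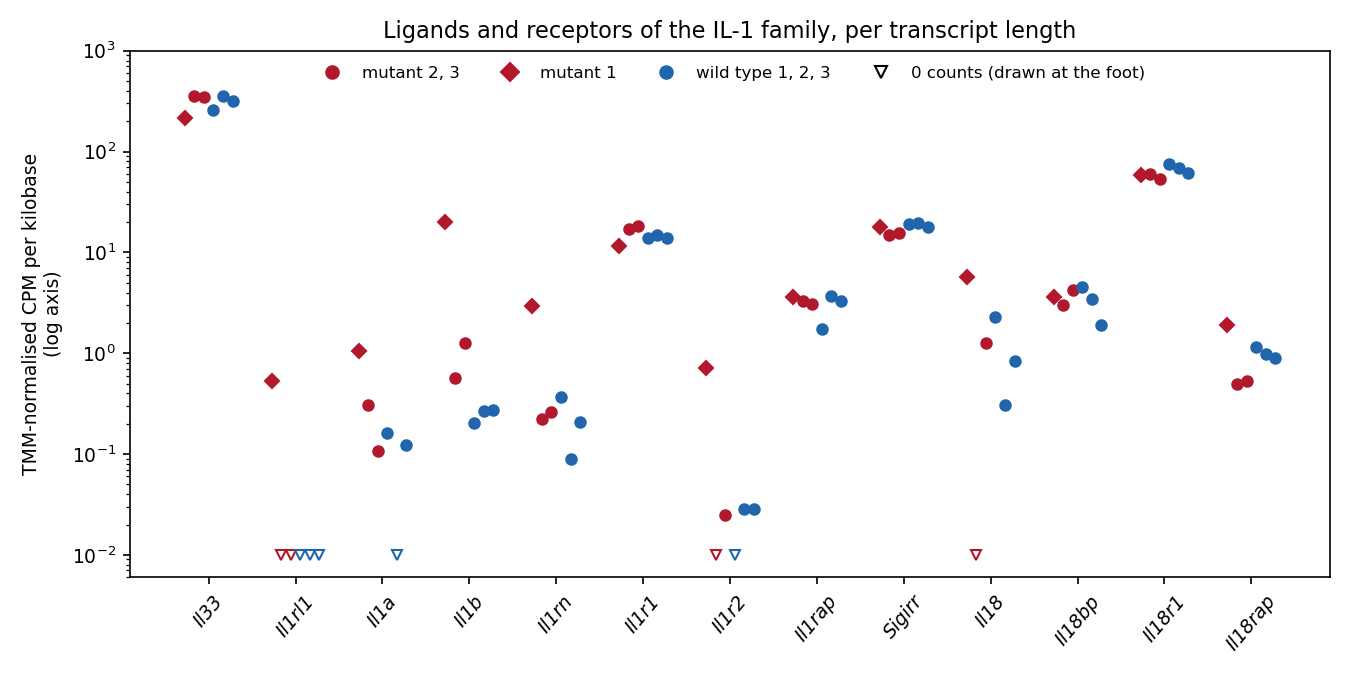
Levels of IL-1 family ligands, receptors and binding proteins in TMM-normalised CPM per kilobase of transcript (log axis) in each library, with mutant 1 as a diamond and open triangles for libraries with 0 counts. Il33 lies between 216 and 357 in all 6 libraries, while its receptor gene Il1rl1 had 0 counts in 5 of them.

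Il33, the gene of the alarmin IL-33, was abundant in every library, and its groups overlapped. It stood at 549, 906 and 886 normalised CPM in mutants 1 to 3 and at 661, 898 and 812 normalised CPM in wild types 1 to 3. Mutant 1 was the lowest library and wild type 1 the next lowest. The mutant mean was 780 ± 201 and the wild-type mean 790 ± 120 (SD, n = 3 each). The log2 fold change was -0.02 with a 95% interval of -0.51 to 0.48 and an edgeR adjusted p of 0.988. Its sign turned without mutant 1, to 0.18 (-0.13 to 0.50, edgeR adjusted p = 0.85).

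The receptor gene for IL-33 had counts in 1 library. Il1rl1, which encodes ST2, had 67 counts in mutant 1 and 0 counts in the other 5 libraries, at least 14.9-fold higher in mutant 1 in normalised CPM when the others are set to 3 counts per library. ST2 is a known surface protein of mast cells and group 2 innate lymphoid cells. Their markers were low, with Gata3 at 116 counts and Kit at 149 counts in mutant 1 against at most 7 and 11 counts elsewhere, and Il5 and Ms4a2 at 0 in the other 5 libraries. The summed level of the 9 markers of these cells, dominated by the epithelial growth factor gene Areg, was 78.3 CPM in mutant 1 and 41.7 to 93.9 CPM elsewhere, and 6 of the 9 were highest in mutant 1. The lymphocyte, fibroblast and endothelial lists also stood higher in mutant 1, as given above. The part of any of these cells in the Il1rl1 counts was not tested.

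Il1a and Il1b, the genes of the cytokines that share IL-1R1, were close to the detection floor outside mutant 1. Il1b had 887, 18 and 49 counts in mutants 1 to 3 and 6, 9 and 9 counts in wild types 1 to 3, which is 27.04, 0.77 and 1.73 normalised CPM against 0.27, 0.36 and 0.37. Every mutant library lay above every wild-type library, and mutant 1 was 38.6-fold above the mean of the other 5. Of all 12899 genes tested, 11.7% had groups that did not overlap, and Il1b was the single one of the 5 tested members that did not. Il1b passed the test's filter on low counts only through the mutant libraries, where it was higher. Its non-overlap and the p-values below are therefore drawn from a gene kept for its mutant values.

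For Il1b the log2 fold change was 4.86 ± 1.39 (SE), with an edgeR adjusted p of 0.737. DESeq2 called it with all libraries (adjusted p = 0.00411), where 0.306% of genes were called, but not without mutant 1 (adjusted p = 0.81). Without mutant 1 the edgeR log2 fold change was 1.89 ± 0.63, at an unadjusted p of 0.0168 and an adjusted p of 0.819. Ptprc, the pan-leukocyte gene, had 4337, 82 and 215 counts in mutants 1 to 3, against 123, 53 and 70 in wild types 1 to 3. Per 100 Ptprc counts, Il1b had 20.5, 21.95 and 22.8 counts in mutants 1 to 3 and 4.88, 16.98 and 12.9 counts in wild types 1 to 3. On this ratio mutant 1 was level with the other mutants for Il1b, and every mutant stood above every wild type. The ratios in mutant 2 and the wild types rest on at most 18 Il1b counts each. Markers of cells other than leukocytes were also higher in mutant 1, and the part of any cell type in the Il1b counts was not tested. The other low genes gave mixed ratios. The caspase-1 gene Casp1 had 3.94 per 100 Ptprc counts in mutant 1, within the range of 0 to 10.0 in the other libraries. Outside mutant 1 such ratios rest on few counts, 3 to 11 for Il1rn and 0 to 14 for Casp1. Mutant 1 had the lowest ratio for Il1rn (3.02 per 100 Ptprc counts against 4.65 to 10.0) and for Nlrp3 (7.12 against 10.6 to 37.8). For Il18 it had 3.34 per 100 Ptprc counts, against 0 in mutant 2 and 11.3 to 31.7 in the remaining 4 libraries, and for Il1a 1.57 against 0 in wild type 2 and 2.79 to 17.1 in the remaining 4. No source used here states whether counting used strand, and the antisense gene Il1bos shares the Il1b locus, so their reads cannot be told apart.

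Il1a had 68, 14 and 6 counts in mutants 1 to 3 and 7, 0 and 6 counts in wild types 1 to 3. It was too low for the test. The groups overlapped, and mutant 1 was 7.54-fold above the mean of the other 5 in normalised CPM. The overlapping gene Gm14023 had 6 to 13 counts per library, more than Il1a in mutant 3 and in all 3 wild types, so the low Il1a counts are uncertain.

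Il1rn, the receptor antagonist gene, was also below the test's filter. It had 131, 7 and 10 counts in mutants 1 to 3 and 11, 3 and 7 counts in wild types 1 to 3. Mutant 1 stood 12.8-fold above the mean of the other 5, and the remaining mutants lay within the wild-type range. With no filter on low counts the log2 fold change was 2.33 ± 1.13 for Il1rn and 2.32 ± 1.29 for Il1a, each with an edgeR adjusted p of 0.746. With DESeq2 and mutant 1 left out, these values were 0.12 ± 1.11 and 1.12 ± 1.45.

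Il18, the gene of the interferon-γ-inducing cytokine IL-18, was low and uneven. It had 145, 0 and 28 counts in mutants 1 to 3 and 39, 6 and 16 counts in wild types 1 to 3. The libraries ran from 0 to 4.42 normalised CPM and the groups overlapped widely. The log2 fold change was 1.03 ± 1.40 (edgeR adjusted p = 0.877) and turned to -0.80 ± 1.25 without mutant 1 (edgeR adjusted p = 0.92). With the replicate number as a block it was 0.22 ± 0.99. Bco2, which overlaps Il18, had 2 to 38 counts, and reads of the pair may be split between them.

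**Figure D2:**
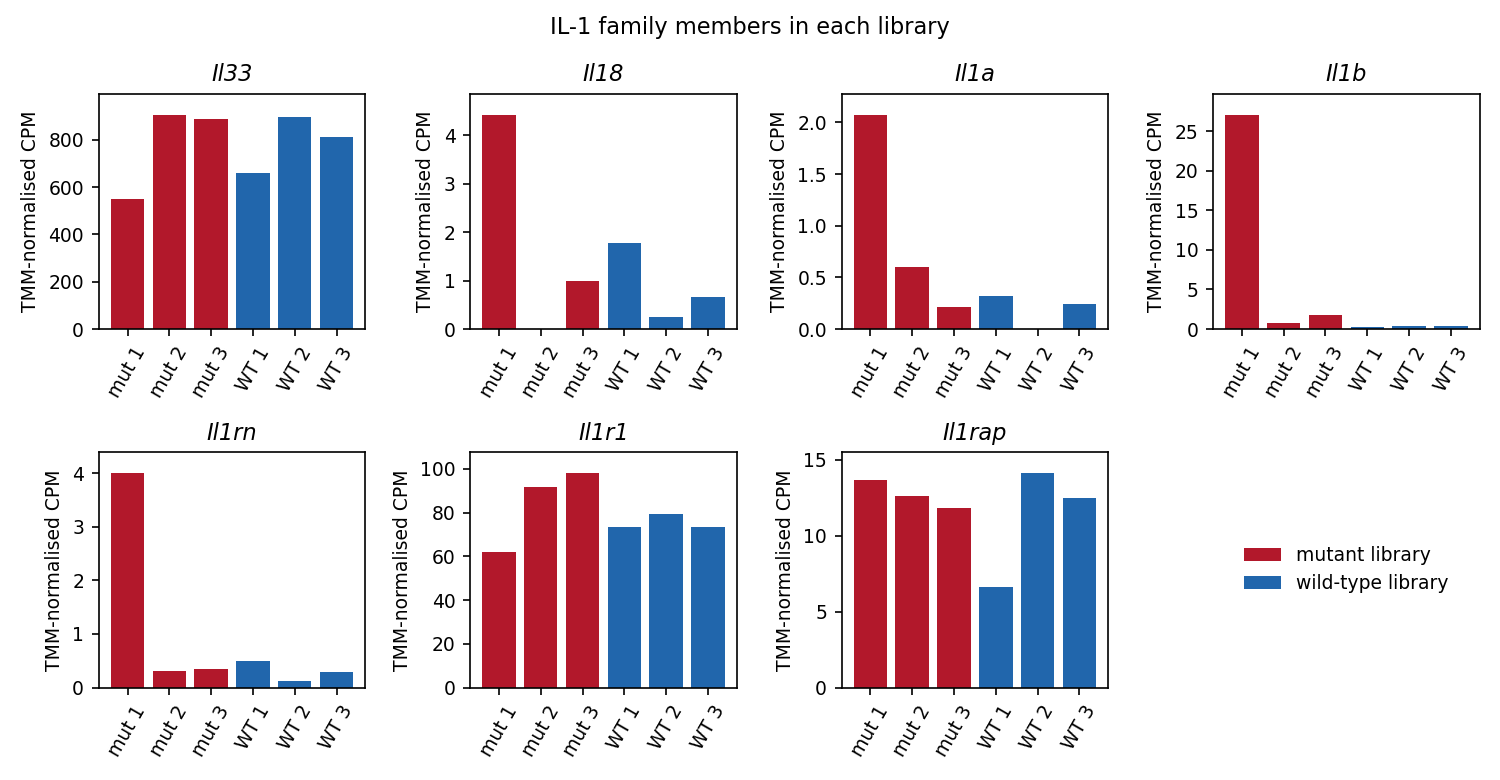
TMM-normalised CPM of each member in the 6 libraries, as bars from 0 on a linear axis of its own for each gene (red, mutant; blue, wild type). Il18, Il1a, Il1b and Il1rn were highest in mutant 1, whereas Il33 and Il1r1 were lowest there.

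Il1r1, which encodes the signalling receptor for IL-1α and IL-1β, was expressed in all libraries. It stood at 61.9, 91.8 and 97.96 normalised CPM in mutants 1 to 3 and at 73.5, 79.3 and 73.5 normalised CPM in wild types 1 to 3. Mutants 2 and 3 lay above all wild types and mutant 1 below all of them. The log2 fold change over all libraries was 0.15 with a 95% interval of -0.24 to 0.54 and an edgeR adjusted p of 0.843. Without mutant 1 it was 0.33 (0.13 to 0.53), with an unadjusted p of 0.00528 that did not pass over all genes (edgeR adjusted p = 0.819). In that comparison 5.85% of 12954 genes had an unadjusted p under 0.05, and 2 of 5 tested members did (Il1r1 and Il1b). Without mutant 1, 22.8% of genes had groups that did not overlap, as did the same 2 members. Of these, Il1b passed the filter of this fit only through its mutant libraries, so its place in both counts rests on that.

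Il1rap, the accessory chain shared by the IL-1 and IL-33 receptors, stood at 13.7, 12.6 and 11.8 normalised CPM in mutants 1 to 3 and at 6.63, 14.1 and 12.5 normalised CPM in wild types 1 to 3. Wild type 1 was the low library, with 145 counts against 295 to 448 elsewhere, and the other 5 lay close together. The log2 fold change was 0.20 (-0.43 to 0.83, edgeR adjusted p = 0.876). It was 0.14 without mutant 1 (edgeR adjusted p = 0.938) and -0.06 without wild type 1. Membrane-bound and soluble forms of the protein come from different transcripts of this gene, which symbol-level counts do not separate.

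**Figure D3:**
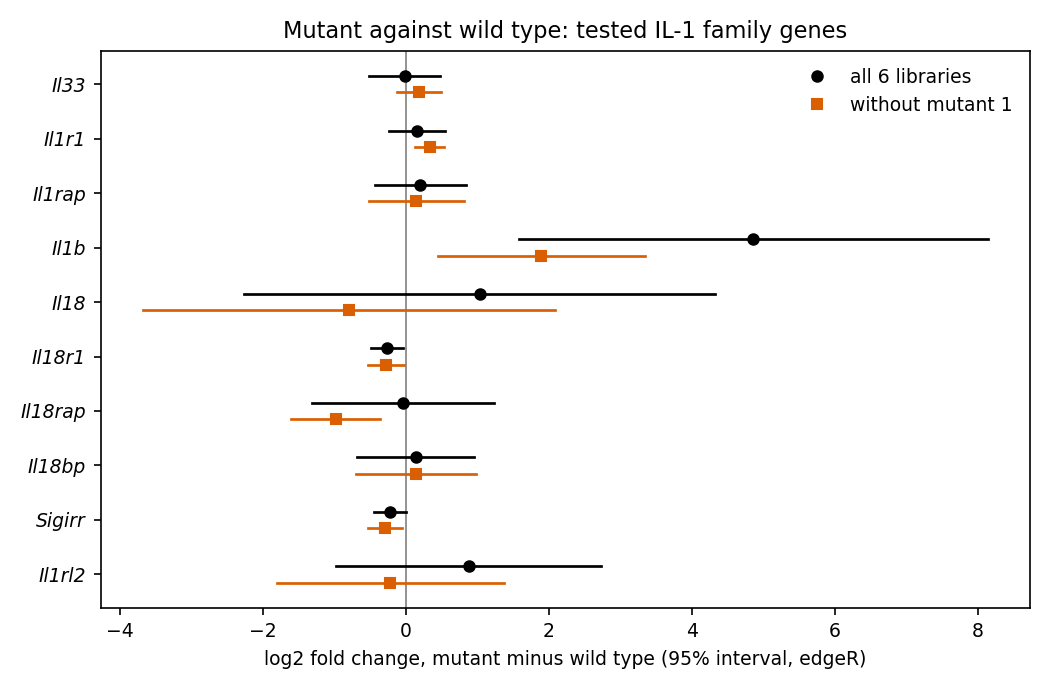
Log2 fold changes, mutant minus wild type, of the 5 tested members and 5 further tested family genes, with 95% intervals from edgeR, for all 6 libraries (black circles) and without mutant 1 (orange squares). Il1r1 moved from 0.15 to 0.33 and Il1b from 4.86 to 1.89 when mutant 1 was left out, and no gene passed the adjusted threshold in either fit.

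None of the 5 tested members passed a 5% Benjamini-Hochberg threshold over all genes in edgeR's quasi-likelihood test, which called 0% of 12899 genes with all libraries. At an unadjusted p under 0.05 it gave 849 genes (6.58%), and DESeq2 called 46 of 15018. Among the 849 was 1 member, Il1b, which had passed the filter only through its mutant libraries. The log2 fold change was positive in 4 and negative in 1 of the tested members, with a median of 0.20, beside 51.1% positive and a median of 0.00 over all tested genes. With no filter on low counts, when all 7 members were tested, the median was 1.001, beside 0.03 over all genes of that fit. Il1a and Il1rn, the members added there, were highest in mutant 1. Without mutant 1 the median was 0.18 over 5 members.

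Of the other 14 family genes, 5 had enough counts for the test, namely both receptor chains for IL-18, its binding protein, the inhibitory receptor gene Sigirr and Il1rl2. None of the 5 passed the threshold, 2 were positive and 3 negative, and the median log2 fold change was -0.04 (-0.28 without mutant 1). Il18r1, the ligand-binding chain for IL-18, stood at 138, 142 and 126 normalised CPM in mutants 1 to 3 and at 178, 164 and 147 normalised CPM in wild types 1 to 3. Each mutant library lay below each wild-type library, beside 11.7% of all tested genes whose groups did not overlap in either direction. Its log2 fold change was -0.27 (-0.49 to -0.05, edgeR adjusted p = 0.737), and -0.28 without mutant 1 (edgeR adjusted p = 0.819). At 68.6 normalised CPM per kilobase in the wild types, Il18r1 was higher than Il1r1 and far higher than its ligand gene Il18.

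Il18rap, the signalling chain for IL-18, was lower, at 1.01 normalised CPM per kilobase in the wild types. Its normalised CPM was 9.36, 2.40 and 2.57 in mutants 1 to 3, and 5.58, 4.81 and 4.40 in wild types 1 to 3. Mutants 2 and 3 lay below all wild types and mutant 1 above them, and the log2 fold change of -0.04 became -0.98 ± 0.27 without mutant 1 (edgeR adjusted p = 0.819). Il18bp, which encodes the soluble decoy for IL-18, overlapped between the groups at 5.75 ± 0.98 against 5.24 ± 2.11 normalised CPM (SD, n = 3 each). Sigirr, which restrains IL-1 family signalling, had a normalised CPM of 33.6, 28.5 and 29.7 in mutants 1 to 3, against 36.4, 36.8 and 34.2 in wild types 1 to 3. Its groups did not overlap, which held for 11.7% of all tested genes in either direction. Its log2 fold change was -0.23 ± 0.09 (edgeR adjusted p = 0.737), and -0.30 without mutant 1 (edgeR adjusted p = 0.819).

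Il1rl2, the IL-36 receptor gene, had 110 counts in mutant 1 and 7 to 34 elsewhere. Il1r2, the decoy receptor for IL-1, had 33 counts in mutant 1 and at most 1 elsewhere. Il1f5, Il1f6 and Il1f8 of the IL-36 group and the neuronal receptors Il1rapl1 and Il1rapl2 had 0 counts in every library, and Il1f9 and Il1f10 had at most 3 counts outside mutant 1.

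The genes that process IL-1 family cytokines were measured at very different depths. Calpains, which cut IL-1α, were measured well in every library, with Capn2 at 119, 122 and 105 normalised CPM in mutants 1 to 3 and 91.8, 102 and 105 normalised CPM in wild types 1 to 3. Capn1 ranged from 73.0 to 90.8 and Gsdmd, the pore-forming gasdermin gene, from 20.02 to 26.4 normalised CPM. Casp8 stood at 40.9, 32.6 and 33.0 normalised CPM in mutants 1 to 3. In wild types 1 to 3 it stood at 28.1, 29.6 and 31.0 normalised CPM. Inflammasome genes were low outside mutant 1. Casp1, the IL-1β-converting enzyme, had 171 counts in mutant 1 and 0 to 14 elsewhere, Nlrp3 309 counts against 6 to 36, and the adaptor gene Pycard 238 against 73 to 118.

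Of 22 processing genes 8 were tested, 6 were positive and none passed, with a median log2 fold change of 0.24 that became -0.14 without mutant 1. Among these 8, the groups of Casp8, Capn2 and Nlrp3 did not overlap, with every mutant library above every wild type. This held in either direction for 11.7% of all tested genes. Nlrp3 had the smallest p of the list, at a log2 fold change of 3.18 ± 0.92 with all libraries and 1.55 ± 0.60 without mutant 1 (edgeR adjusted p = 0.737 and 0.819). Casp1 is named because of its role, and was chosen after its values were seen.

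**Figure D4:**
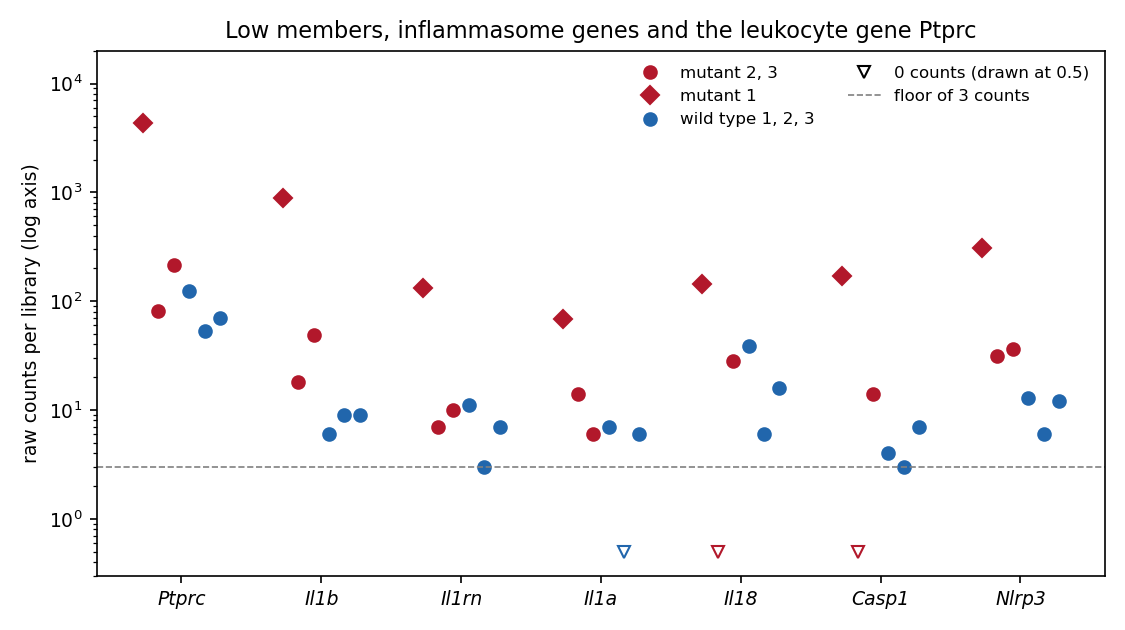
Raw counts per library (log axis) of the leukocyte gene Ptprc, the low members Il1b, Il1rn, Il1a and Il18, and the inflammasome genes Casp1 and Nlrp3, with mutant 1 as a diamond and a dashed line at 3 counts. All 7 genes were highest in mutant 1, where Ptprc had 4337 and Il1b 887 counts.

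Mutant 1 was the highest library for 4 of the 7 members, as it was for 3801 of 13725 genes with at least 50 counts in total. Il1b and Il1rn were at least 5-fold above every other library there, 2 of 7 members beside 6.99% of these 13725 genes. The same held for 7 of 12 processing genes with at least 50 counts (Casp1, Casp4, Nlrp3, Nlrc4, Aim2, Naip2 and Naip5) and for 1 of 6 other family genes (Il1rl1). Shared signalling genes and IL-1 response genes were near the share over all genes, at 1 gene each. Of the former it held for 1 of 25 (4%), Irak3, the inhibitory IRAK made mainly by myeloid cells, and of the latter for 1 of 17 (5.88%), the monocyte chemokine gene Ccl2. The total of 50 counts included mutant 1, which carried Il1rn, Il1rl1, Casp1, Nlrc4, Aim2, Naip5 and Ccl2 past it. Such genes entered these counts through the library in which they were then found high. The same rule set the 13725 genes. Leukocyte markers were high in mutant 1, and their part was not tested.

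The shared signalling genes were detected in every library. All 25 were tested, 13 were positive, 12 negative and none passed, with a median log2 fold change of 0.00. Those with the highest mean CPM were Nfkbia, Tab2, Nfkb1, Irak1, Tollip and Rela. Nfkbia, the NF-κB inhibitor gene, stood at 121, 156 and 151 normalised CPM in mutants 1 to 3 and at 138, 181 and 229 normalised CPM in wild types 1 to 3, with overlapping groups (log2 fold change -0.36 ± 0.19, edgeR adjusted p = 0.739, and -0.25 without mutant 1). Irak2, a kinase of the receptor complex, had -0.27 ± 0.14, and -0.38 without mutant 1. Tollip, an adaptor that dampens the pathway, ranged only from 87.7 to 99.7 normalised CPM.

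Genes known to be induced by IL-1 in epithelium were also divided. Of 18 listed, 15 were tested, 9 were positive, 6 negative and none passed, with a median log2 fold change of 0.02 (0.00 without mutant 1). The antibacterial protein gene Lcn2 had a normalised CPM of 1483, 1218 and 1955 in mutants 1 to 3, against 1574, 1445 and 1571 in wild types 1 to 3. Icam1 ranged from 625 to 835, the complement gene C3 from 566 to 813 and Nfkbiz from 117 to 203 normalised CPM, each with overlapping groups. Tnfaip3, a feedback inhibitor of NF-κB, stood at 165 normalised CPM in mutant 1 and at 31.2 to 39.0 elsewhere.

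Cxcl2, a neutrophil-attracting chemokine gene, had the smallest p of these genes. It stood at 15.5, 1.75 and 3.46 normalised CPM in mutants 1 to 3. In wild types 1 to 3 it stood at 1.14, 1.48 and 1.06 normalised CPM. Its groups did not overlap, which held for 11.7% of all tested genes in either direction. Its log2 fold change was 2.49 ± 0.79 with all libraries and 1.09 without mutant 1. Wild type 1, the low library for Il1rap, was also the lowest of the 6 for Ptgs2, at 82.7 against 117 to 153 normalised CPM. The same held for Nfkbiz, for Icam1 and for Il6, with 9 counts against 76 to 108. Cxcl5 and Cxcl3 went the other way and were highest in wild type 1. They stood there at 7.04 and 1.74 normalised CPM, against at most 2.92 and 1.40 elsewhere. Il6, Cxcl5 and Cxcl3 were chosen after their values were seen.

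The genes whose log2 CPM followed each tested member most closely over the 6 libraries are given as a description. For Il33 these were Pex13 (Pearson r = 0.994) and Csnk1a1 (0.99), for Il1r1 Npepps (0.991) and Usp40 (0.989), and for Il1rap Gon4l (0.989) and Top1mt (0.983). For Il1b they were Wdr19 (0.993) and Man2b1 (0.993), and for Il18 Rfc2 (0.985) and Usp48 (0.982). Mutant 1 did not set the spread of every member, since wild type 1 was the low library for Il1rap. Without mutant 1 the r of these 10 genes was 0.965 to 0.989. Those 5 libraries are among the 6 used to pick the genes, so this is no separate check. The best of 9962 or 9963 genes had to be high by choice.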

How the data were processed

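Polyadenylated RNA of 3 mutant and 3 wild-type libraries was sequenced. The deposited values were raw counts per gene symbol, and the submitters' processing notes name the build mm9, CASAVA and DESeq2. The sources used here do not give the aligner, counter, annotation or strand setting. Groups came from the sample titles. The 12899 genes that passed filterByExpr held at least 99.65% of each library's counts. They were TMM-scaled and tested with edgeR 4.0.16 in R 4.3.3 (quasi-likelihood F-test, mutant minus wild type, two-sided, Benjamini-Hochberg over all tested genes, threshold 5%). Il1a and Il1rn did not pass the filter. Normalised CPM uses the TMM factors, and marker sums are CPM of the library total. A count of 3 corresponds to 0.0977 to 0.133 CPM, and such floors cover counting error only. Transcript lengths came from GENCODE vM21, and promoters from RefSeq on GRCm38.p6. Alternatives used DESeq2 1.42.0, limma-voom 3.58.1, other scalings and filters, a replicate block and left-out libraries. DESeq2 without mutant 1 was added after the data were seen.

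The members and lists were chosen with earlier results of these data known. Named genes were all members, up to 6 genes of each other list with the highest mean CPM, up to 3 with the smallest p, the 2 nearest in pattern to each tested member among genes of at least 5 CPM, and Dlk1; lowly counted family genes are listed beside them. The procedure was run on simulated counts with known changes, drawn around the mean over the libraries. No simulated library stood apart as mutant 1 did, so that run cannot show how the test handles such a library. Chi-square per degree of freedom was 18.4 to 83.6 between library pairs, so none agreed within sampling noise. After centring each gene on its group mean, mutant 1 and wild type 1 correlated at 0.31, the libraries numbered 2 at 0.21 and those numbered 3 at 0.17. The labels name no shared litter or day, and these correlations come from the same data, so whether the numbers pair the samples is not settled. The main fits did not pair the samples, and the replicate number served as a block only in an alternative fit.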

Additional observations from a re-analysis of the deposited data

How the results depend on the processing

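Over 73 refitted values of the 5 tested members, 63 kept their direction and their side of the threshold. With DESeq2, Il1b passed (log2 fold change 4.88, adjusted p = 0.00411), while its adjusted p was 0.471 or more in the other alternatives. Il33 turned positive with limma-voom (0.0207), without mutant 1 (0.18), without wild type 2 (0.08), without both (0.29) and with DESeq2 without mutant 1 (0.19). Il18 turned negative without mutant 1 (-0.80), without mutant 1 and wild type 2 (-1.25) and with DESeq2 without mutant 1 (-0.83), and Il1rap without wild type 1 (-0.0644). Leaving out 1 library at a time, Il33 ranged from -0.14 to 0.18, Il18 from -0.80 to 2.01 and Il1rap from -0.0644 to 0.41. The cause of these turns was not tested. With the replicate number as a block, 0 genes passed, and no call of a member changed. The log2 fold change was then 3.32 for Il1b, 0.22 for Il18, 0.26 for Il1rap, 0.13 for Il1r1 and -0.04 for Il33. With limma-voom, Il1b had 2.67, Il18 0.38, Il1r1 0.24 and Il1rap 0.03. The block could not be fitted with mutant 1 and wild type 2 both left out, since the groups then share 1 number.

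The count of genes past the threshold, 0 with edgeR, was 46 with DESeq2 and 22 with DESeq2 without mutant 1. Leaving out 1 library gave 0 to 1 genes, the 1 being Gpr133 without wild type 3, chosen for naming after its values were seen. The edgeR fit with all libraries gave 849 genes at an unadjusted p under 0.05. With no filter on low counts, more genes of the lists were tested. The median log2 fold change was then 0.85 for the other family genes and 1.96 for the processing genes, beside 0.03 over all genes. Several of the genes added, such as Il1rl1, Nlrc4 and Naip6, had most or all of their counts in mutant 1, whereas Elane and Nlrp6 had none there. Leaving out 1 library, with the filter kept, the medians of these 2 lists ran from -0.28 (without mutant 1) to 0.25 and from -0.14 (without mutant 1) to 0.38. That of the shared signalling genes ran from -0.0458 to 0.0188. At 0.0977 to 0.133 CPM for 3 counts, depth limits what Il1a, Il1b, Il1rn and Il18 can show outside mutant 1.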
